A study of Homo sapiens with 12 samples.

Results

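Butyrate given to HK2 cells before TNF-α was compared with TNF-α alone in 4 of the 12 libraries of the series. The members were the 2 libraries labelled BUTN and the 2 labelled TNF (called TN here), taken by their labels and not by any measured value. HK2 is an immortalized human proximal tubular epithelial line that carries the E6 and E7 genes of a papillomavirus, and all libraries came from this line. TN cells received TNF-α at 5 ng/mL for 3 h. BUTN cells received 3 mM butyrate for 24 h and then the same TNF-α. PRTN cells received 15 mM propionate for 24 h before TNF-α, TNBU cells received 3 mM butyrate for 24 h after it, TNPR cells received propionate after it, and Ctrl cells received neither agent. Each group held 2 libraries that the series describes as biological replicates, from 1 cell line. A treatment text common to the labels of the series mentions thapsigargin and JQ1, but the agents given here are those stated for the single libraries. There was no group with butyrate and without TNF-α, so changes by butyrate alone and changes that need TNF-α as well cannot be told apart. The labels do not say whether TN cells were cultured for the 24 h that preceded TNF-α in BUTN, so time in culture cannot be told apart from butyrate either. Fewer cells and less RNA per cell cannot be told apart in bulk RNA.

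Butyrate is a short-chain fatty acid that gut bacteria make from fibre. Inside a cell it inhibits class I and class II histone deacetylases, so that acetyl groups stay on histones, and it can also serve as fuel in mitochondria or act on G protein-coupled receptors at the surface. In epithelial cells it is known to halt the cell cycle, with induction of the inhibitor p21, and to raise genes that the lineage normally keeps silent. TNF-α acts through NF-κB and induces cytokines and chemokines. The 186 genes that TNF-α alone raised against Ctrl (0.764% of 24342 genes tested) were set aside, since the question here was what else butyrate changed. Their definition shares the TN libraries with the comparison below. Of them, 23 were higher and 90 were lower in BUTN than in TN.

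The expected counts summed to 29049322 and 30517192 in TN and to 31307822 and 33851130 in BUTN, and to between 27269986 and 33851130 over the 12 libraries. Mitochondrial genes held 7.75% to 8.12% of the counts in these 4 libraries. Proximal tubule markers summed to 906 and 962 CPM (counts scaled by library size and TMM factor) in TN and to 389 and 371 CPM in BUTN, and 6 of the 13 reached 1 CPM in TN and 8 in BUTN. PAX8 and HAVCR1 were well detected, whereas LRP2, HNF4A, ANPEP and MME had no count in TN, so the line lacked several defining transcripts of its segment. Epithelial markers summed to 1212 and 1272 CPM in TN and to 2416 and 2381 CPM in BUTN. Of them KRT8, KRT18, KRT19 and CDH1 were called higher and KRT7 was not called. EPCAM was called lower, at 56.1 and 58.1 CPM in TN and 21.0 and 23.2 CPM in BUTN. Marker sums of other cell types also moved with the groups, from 13.3 and 11.6 to 53.8 and 54.1 CPM for fibroblasts, from 5.80 and 4.77 to 44.3 and 44.9 CPM for neurons, from 0.149 and 0.287 to 3.24 and 3.49 CPM for endothelium, from 30.4 and 34.2 to 44.6 and 41.2 CPM for leukocytes and from 0.558 and 0.503 to 5.94 and 6.93 CPM for erythroid cells. Of the leukocyte markers LYZ (0.149 and 0 to 0.688 and 0.997 CPM) and CD14 (0.633 and 0.897 to 2.78 and 3.52 CPM) rose, CD68 was not called, MS4A1 had no count in the 4 libraries and PTPRC stayed at or under 0.0867 CPM. Of the erythroid markers HBA1 rose from 0.558 and 0.467 to 5.91 and 6.90 CPM and HBB had no count. Most of the fibroblast sum was LUM, which rose from 8.30 and 7.75 to 43.8 and 46.1 CPM. PDGFRA, PDGFRB and COL3A1 also rose, whereas DCN was called lower (1.12 and 0.861 to 0.563 and 0.549 CPM). The part of other cells in the results was not tested.

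Beyond the TNF-α-induced genes, butyrate before TNF-α changed a broad set of genes in both directions. Of 24156 genes, 5597 were higher in BUTN than in TN (23.2%) and 3523 were lower (14.6%), with limma, when a gene had to differ by more than 1.5-fold with an adjusted p below 0.05. The rises were larger than the falls. The median log2 fold change was 2.08 among the higher genes, or 1.55 with the 941 genes that had no count in TN set to the bound that 3 counts per library allow, and it was -0.99 among the lower genes. Fitted rises over 8-fold were seen in 1577 genes and falls over 8-fold in 118. The 1577 include genes with no count in TN, whose fitted fold is no bound. Such genes passed the filter only through other groups, and 941 of 1303 were higher and none lower. Over the 19096 genes kept when every library had to hold a count, 4094 were higher and 3270 lower. The 2 BUTN libraries lay wholly above both TN libraries for 5596 of the 5597 higher genes, and wholly below for 3520 of the 3523 lower ones, whereas the libraries of the groups did not overlap in 77.2% of all 24156 genes. The balance moved with the scaling. With library size alone 71.8% of the called genes were higher, against 61.4% with TMM factors, and the median log2 fold change over all genes moved from 0.08 to 0.24. Of the 9120 called genes, 7182 differed by less than 1.5-fold between TN and Ctrl, and 90 of them were called lower by it.

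**Figure D1:**
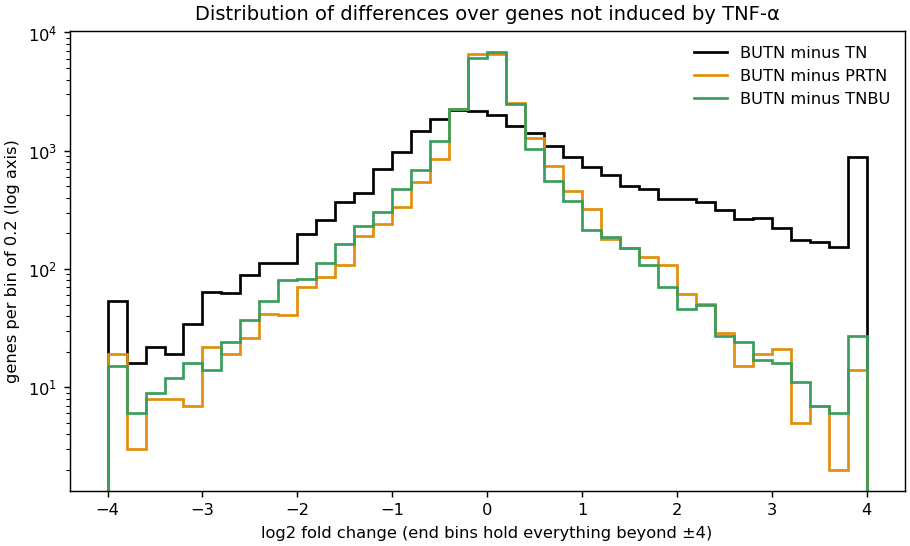
Log2 fold changes of the 24156 genes not induced by TNF-α (x axis), with the number of genes per bin on a log y axis, for BUTN minus TN (black), BUTN minus PRTN (orange) and BUTN minus TNBU (green). The difference from TN is wide and has its long tail on the side of higher genes, whereas the other 2 are narrow.

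The direction of change went with the level of expression. Of the 10177 genes under 1 CPM in TN, 3272 were higher in BUTN (32.2%) and 426 were lower (4.19%). Of the 2293 genes over 100 CPM in TN, 114 were higher (4.97%) and 627 were lower (27.3%). A gene at a low level in TN passed the filter more readily when it was high elsewhere, so the same split was made by the mean over all 12 libraries. That mean includes BUTN, TN and the other treated groups, so its classes depend in part on the change as well. A gene near the floor also has little room to be called lower. Part of the relation to level is thus built into both splits. There, 25.1% of the genes under 1 CPM were higher and 5.98% were lower, and of those over 100 CPM 11.3% were higher and 18.7% were lower. The genes called higher together rose from 63806 to 142883 CPM, and those called lower went from 270758 to 140072 CPM. Of the protein-coding genes, 4186 of 15769 were higher and 2672 lower, and of the long non-coding RNA genes 1039 of 4893 were higher and 522 lower. By genomic span, from the shortest to the longest class of equal number, 25%, 21.6%, 20.7% and 25.5% of protein-coding genes with at least 1 CPM in a group were higher.

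**Figure D2:**
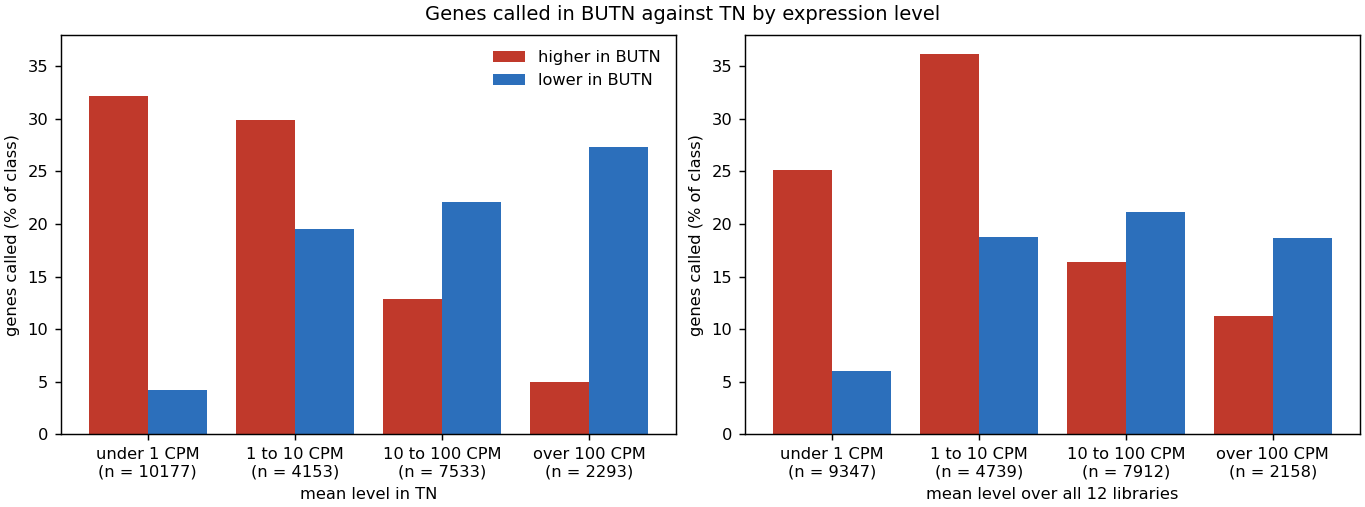
Share of genes called higher (red) or lower (blue) in BUTN against TN (y axis, % of the class) by mean CPM in TN (left) and by mean CPM over all 12 libraries (right), with the number of genes under each class. Higher genes make up 32.2% of those under 1 CPM in TN and 4.97% of those over 100 CPM, and lower genes 4.19% and 27.3%.

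Genes that are often used to follow butyrate or another histone deacetylase inhibitor were examined first. They were listed with earlier results of these data known, so they are no independent check of the treatment. Of 13 measured, 8 rose and 3 fell (61.5% and 23.1%, against 23.2% and 14.6% over all genes). CDKN1A, which encodes the cell cycle inhibitor p21 (chromosome 6, 36676460 to 36687337, plus strand), stood at 38.9 and 38.3 CPM in TN and at 268 and 259 CPM in BUTN, a log2 fold change of 2.77 ± 0.07 (SE, n = 2 per group, adjusted p = 7.1e-11). Both BUTN libraries were far above both TN libraries, and PRTN (287 and 289 CPM) and TNBU (228 and 252 CPM) were of the same order. TXNIP, an inhibitor of thioredoxin and of glucose uptake, rose from 68.7 and 68.7 to 826 and 881 CPM (12.4-fold). CLU, a secreted chaperone, rose from 14 and 16.9 to 292 and 307 CPM (19.4-fold), and the actin-severing gelsolin (GSN) from 98.5 and 112 to 292 and 281 CPM (2.73-fold). These groups did not overlap. CDKN2D, another inhibitor of cyclin-dependent kinases, rose 4.14-fold, whereas CDKN1C fell 1.92-fold. The placental-type alkaline phosphatases ALPP and ALPPL2, near-identical genes among which reads were divided by estimate, reached 3.85 and 4.03 CPM and 7.19 and 7.67 CPM in BUTN, and ALPPL2 had no count in TN, so that its rise was at least 67.7-fold. TYMS, which makes thymidylate for DNA, fell from 187 and 187 to 84.1 and 81.0 CPM, and the apoptosis inhibitor and mitotic gene BIRC5 fell from 111 and 116 to 61.7 and 62.1 CPM. MYC, at 219 and 229 CPM in TN and 185 and 196 CPM in BUTN, and the neuronal tubulin TUBB3 did not pass the fold threshold. CCND1, which was among the TNF-α-induced genes, stood at 64.1 and 64.7 CPM in TN and at 62.0 and 63.5 CPM in BUTN.

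Promoter sequences are shown for 4 genes, because the letters around the start differ among genes that changed. They are CDKN1A and the vesicular glutamate transporter SLC17A7, which rose, KRT20, a keratin that was higher in BUTN than in PRTN and TNBU, and CCNB1 (cyclin B1), which fell and was chosen after its values were seen. Each runs from 250 bases before to 50 after the start of transcription in RefSeq (GRCh38.p14), at chr6:36678464-36678763, plus strand, chr19:49441478-49441777, minus strand, chr17:40885193-40885492, minus strand and chr5:69166900-69167199, plus strand. Capitals mark every match, on either strand, to the GC box letters GGGCGG, the CCAAT box letters CCAAT and the TATA box letters TATAAA.
CDKN1A promoter: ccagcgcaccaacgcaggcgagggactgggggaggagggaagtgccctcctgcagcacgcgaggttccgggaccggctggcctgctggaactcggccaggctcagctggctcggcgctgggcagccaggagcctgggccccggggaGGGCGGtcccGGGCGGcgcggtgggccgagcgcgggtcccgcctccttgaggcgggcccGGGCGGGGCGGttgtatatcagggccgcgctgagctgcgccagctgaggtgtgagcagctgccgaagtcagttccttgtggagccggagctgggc
SLC17A7 promoter: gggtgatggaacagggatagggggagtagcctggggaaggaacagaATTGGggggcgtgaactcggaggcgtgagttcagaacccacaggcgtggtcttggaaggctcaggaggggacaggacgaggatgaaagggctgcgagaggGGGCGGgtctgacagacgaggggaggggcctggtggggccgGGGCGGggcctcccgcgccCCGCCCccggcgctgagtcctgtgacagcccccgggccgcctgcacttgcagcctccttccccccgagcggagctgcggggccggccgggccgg
KRT20 promoter: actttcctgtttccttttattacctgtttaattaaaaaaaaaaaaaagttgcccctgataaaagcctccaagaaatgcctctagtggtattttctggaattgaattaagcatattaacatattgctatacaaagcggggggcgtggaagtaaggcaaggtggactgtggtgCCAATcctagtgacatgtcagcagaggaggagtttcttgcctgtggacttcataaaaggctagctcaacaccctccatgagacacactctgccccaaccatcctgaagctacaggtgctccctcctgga
CCNB1 promoter: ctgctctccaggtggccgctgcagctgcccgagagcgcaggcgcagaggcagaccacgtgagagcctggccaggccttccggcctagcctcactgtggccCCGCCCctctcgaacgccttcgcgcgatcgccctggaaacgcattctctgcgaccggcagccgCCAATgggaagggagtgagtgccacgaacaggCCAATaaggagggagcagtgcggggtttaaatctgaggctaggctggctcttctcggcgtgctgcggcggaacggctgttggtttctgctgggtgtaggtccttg
The CDKN1A window held 4 GC box matches, of which the last pair overlap, and 29 CpG dinucleotides. The SLC17A7 window held 3 GC boxes and 1 CCAAT box with 23 CpG, and the CCNB1 window held 1 GC box and 2 CCAAT boxes with 24 CpG. The KRT20 window held 1 CCAAT box, no GC box and 2 CpG. Over all 27305 RefSeq promoters given, 43.8% held a GC box, 35.6% a CCAAT box and 12.1% a TATA box. They matched 12435 of 15754 tested protein-coding genes. Of these 12435, 65.5% held a GC box, 36.2% a CCAAT box and 6.82% a TATA box, and their median was 25 CpG. The remaining tested genes had no promoter here, so the shares were not compared between higher and lower genes.

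Genes of neurons were the most uniformly raised. Of 35 measured genes of synaptic vesicle release, 28 rose and 1 fell (80% against a background of 23.2%), and their median log2 fold change was 2.14 against 0.08 over all genes. Many came from near silence, as 14 of the 28 were under 1 CPM in TN, a class in which 32.2% of all genes were higher. SLC17A7, which loads glutamate into vesicles, went from 0.186 and 0.108 CPM to 22.0 and 22.9 CPM. Synaptophysin (SYP), a vesicle membrane protein, rose from 0.819 and 0.682 to 16.8 and 17.5 CPM, and synapsin 1 (SYN1), which tethers vesicles, from 0.670 and 0.574 to 11.4 and 10.1 CPM. The only member that fell was RIMS2, a scaffold of the release site, from 36.0 and 32.6 to 11.01 and 11.4 CPM. Among 36 neuronal cytoskeleton and RNA-binding genes 23 rose and 4 fell (63.9% and 11.1%). Their median was 1.503, or 1.16 with the 7 that had no count in TN at their bound and 1.01 over the 27 counted in every library. The RNA-binding gene ELAVL3 had no count in TN and stood at 9.70 and 9.13 CPM in BUTN, a rise of at least 85.8-fold. MAP2, a microtubule protein of dendrites, rose from 6.96 and 7.97 to 81.8 and 84.0 CPM, and the axonal MAPT from 0.484 and 0.646 to 7.51 and 7.63 CPM. The falls were in genes already expressed in HK2, namely NRSN2, NEFH, CRMP1 and L1CAM.

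Among receptors and the signalling genes behind them more members rose than fell, against 23.2% higher and 14.6% lower over all genes. Of 21 Eph receptors and ephrins, which guide contact between cells, 11 rose and 3 fell (52.4% and 14.3%, median 1.56, or 0.73 over the 18 that had a count in every library). EPHB3 went from 0 and 0.0718 to 4.82 and 5.78 CPM and the ligand EFNB2 from 17.8 and 16.6 to 67.1 and 67.3 CPM, whereas EPHB2 fell from 162 and 177 to 70.3 and 65.7 CPM. Of 26 RGS genes, which end G protein signals, and G protein gamma subunits, 13 rose and 3 fell (50% and 11.5%, median 1.21, or 0.85 with members at their bound and 0.64 over the 20 counted in every library). RGS9 rose from 3.72 and 3.55 to 30.3 and 30.3 CPM, and RGS5 fell from 87.4 and 85.3 to 22.7 and 24.1 CPM. Of 30 growth factor feedback genes 11 rose and 3 fell (36.7% and 10%, median 0.55). DUSP6, the phosphatase of ERK, rose from 17.8 and 14.8 to 76.1 and 85.3 CPM, and DUSP16, which acts on JNK and p38, fell 2.21-fold.

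Muscle genes rose in 23 of 39 and fell in 5 (59.0% and 12.8%, against 23.2% and 14.6% over all genes). Their median was 2.16 (1.90 with members at their bound, and 0.93 over the 28 counted in every library). Of the 23, 20 were under 1 CPM in TN, a class in which 32.2% of all genes were higher. Desmin (DES), the intermediate filament of muscle, rose from 0.261 and 0.646 to 52.7 and 49.8 CPM, and the non-muscle myosin MYH14 from 0.0819 and 0.433 to 20.5 and 21.0 CPM. The members that fell were TAGLN, TPM1, SMTN, MYH3 and TNNI1, with TAGLN, an actin-binding protein of smooth muscle, going from 394 and 382 to 133 and 130 CPM, whereas CNN1, another such protein, rose from 7.74 and 8.72 to 62.4 and 64.5 CPM. Of 20 germline and meiosis genes 8 rose and 2 fell (40% and 10%). Their median was 0.81, but 0.33 with the 1 gene without a count in TN at its bound, 0.30 without TN replicate 1, and 0.52 with the edgeR filter and 0.08 over the members counted in every library, 16 genes in both cases. TEX15, a gene of male meiosis, rose from 2.01 and 1.97 to 10.9 and 11.8 CPM, whereas SMC1B, the meiotic cohesin subunit, fell 1.71-fold.

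**Figure D3:**
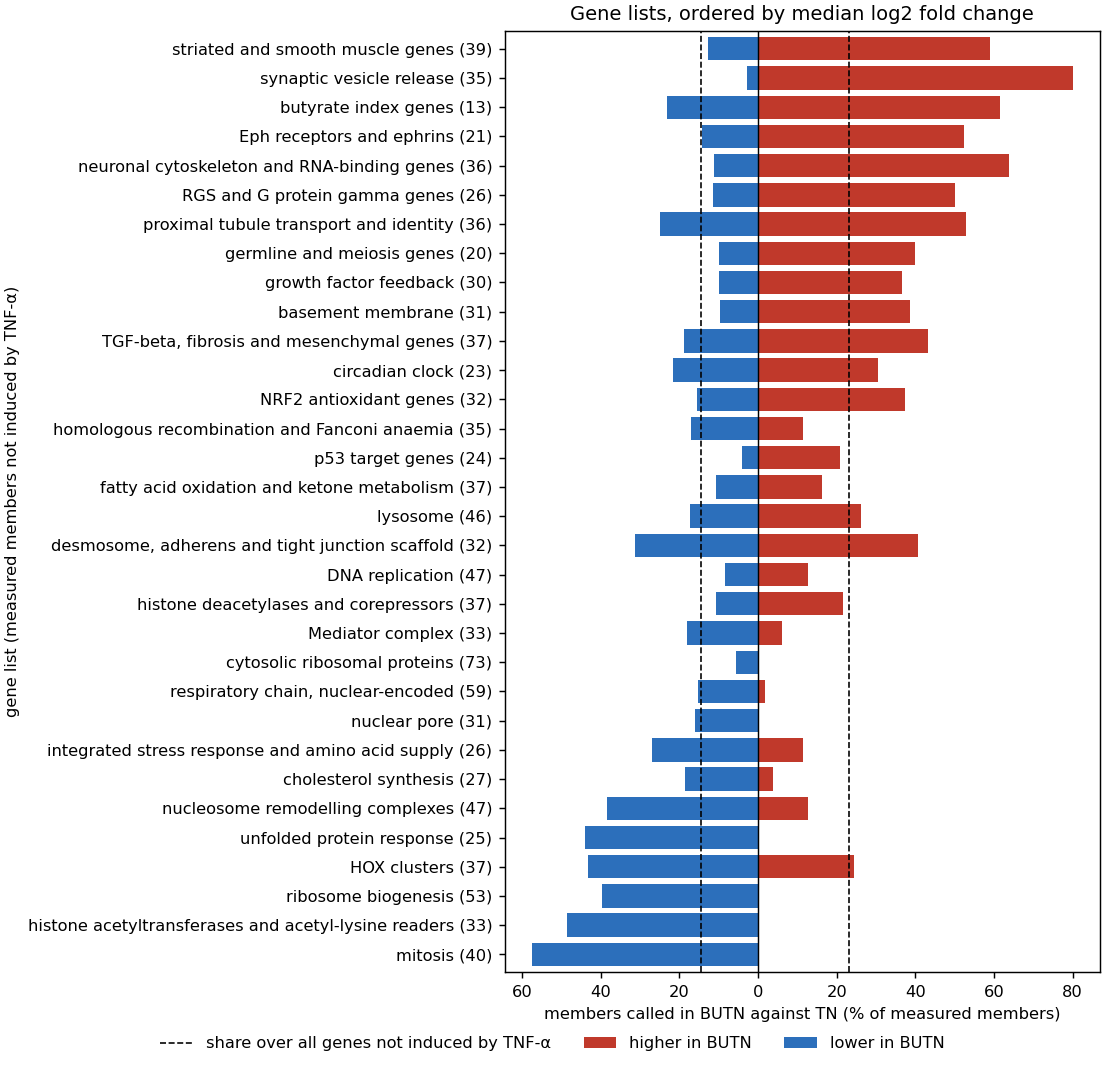
Share of the measured members of each of 32 gene lists that were called higher (red, to the right) or lower (blue, to the left) in BUTN against TN (x axis, %), with the number of members in brackets and lists ordered by median log2 fold change. Dashed lines mark the shares over all 24156 genes, 23.2% and 14.6%, and no mitosis, histone acetyltransferase, ribosome biogenesis or unfolded protein response gene was called higher.

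Epithelial junction genes moved in both directions. Of 32 junction genes 13 rose and 10 fell (40.6% and 31.25%, against 23.2% and 14.6% over all genes). Their median log2 fold change was 0.02, a value that turned negative under other filters and without single libraries. E-cadherin (CDH1), the adhesion molecule of adherens junctions, rose from 0.0745 and 0.144 to 14.4 and 13.7 CPM, and cingulin (CGN), a tight junction scaffold, from 4.73 and 4.67 to 78.2 and 77.2 CPM. Of the desmosomal genes PKP1, PKP2 and DSG3 rose, whereas DSC2, DSG2, DSP and PKP3 fell, and DSC3 fell from 105 and 102 to 31.9 and 31.3 CPM. Of 31 basement membrane genes 12 rose and 3 fell (38.7% and 9.68%, median 0.54, or 0.41 with members at their bound). NID2, which links laminin to collagen IV, rose from 36.2 and 38.9 to 154 and 151 CPM, and the chain of collagen IV encoded by COL4A1 fell from 2410 and 2550 to 1168 and 1139 CPM. Of 37 TGF-β, fibrosis and mesenchymal genes 16 rose and 7 fell (43.2% and 18.9%, median 0.36). LTBP1, which holds latent TGF-β in the matrix, rose from 0.112 and 0.0718 to 5.13 and 5.69 CPM and its relative LTBP2 fell from 77.9 and 86.9 to 22.4 and 21.8 CPM. COL1A1 rose from 39.6 and 43.2 to 202 and 189 CPM, while the collagen crosslinker LOX fell from 151 and 147 to 48.9 and 47.9 CPM. The sum of fibroblast markers rose too, mostly through LUM, whereas DCN fell, as given above. The part of these markers was not tested.

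Of 36 proximal tubule transport and identity genes 19 rose and 9 fell (52.8% and 25%, against 23.2% and 14.6% over all genes). Their median was 0.83, or 0.28 over the 27 counted in every library, and 14 of the 19 were under 1 CPM in TN. AQP1, the water channel of this segment, rose from 0.447 and 0.431 to 14.5 and 15.1 CPM. The brush border peptidase ANPEP had no count in TN and stood at 1.69 and 2.51 CPM in BUTN (at least 19.2-fold higher), and the carbonic anhydrase CA4 likewise reached 2.57 and 2.66 CPM (at least 23.8-fold). The falls included genes at a higher level, namely the transcription factor PAX8 (392.3 and 414 to 155 and 148 CPM) and the transpeptidase GGT1 (179 and 208 to 74.0 and 70.9 CPM). MIOX, which degrades inositol in the tubule, fell from 5.81 and 6.25 to 2.38 and 2.05 CPM. The co-receptor klotho (KL) fell from 4.24 and 4.70 to 0.563 and 0.665 CPM. Of 37 HOX genes, which mark position along the body, 9 rose and 16 fell (24.3% and 43.2%, median -0.46). HOXD10 fell from 23.5 and 22.8 to 3.82 and 3.88 CPM and HOXC10 rose from 4.73 and 3.62 to 9.70 and 9.998 CPM.

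**Figure D4:**
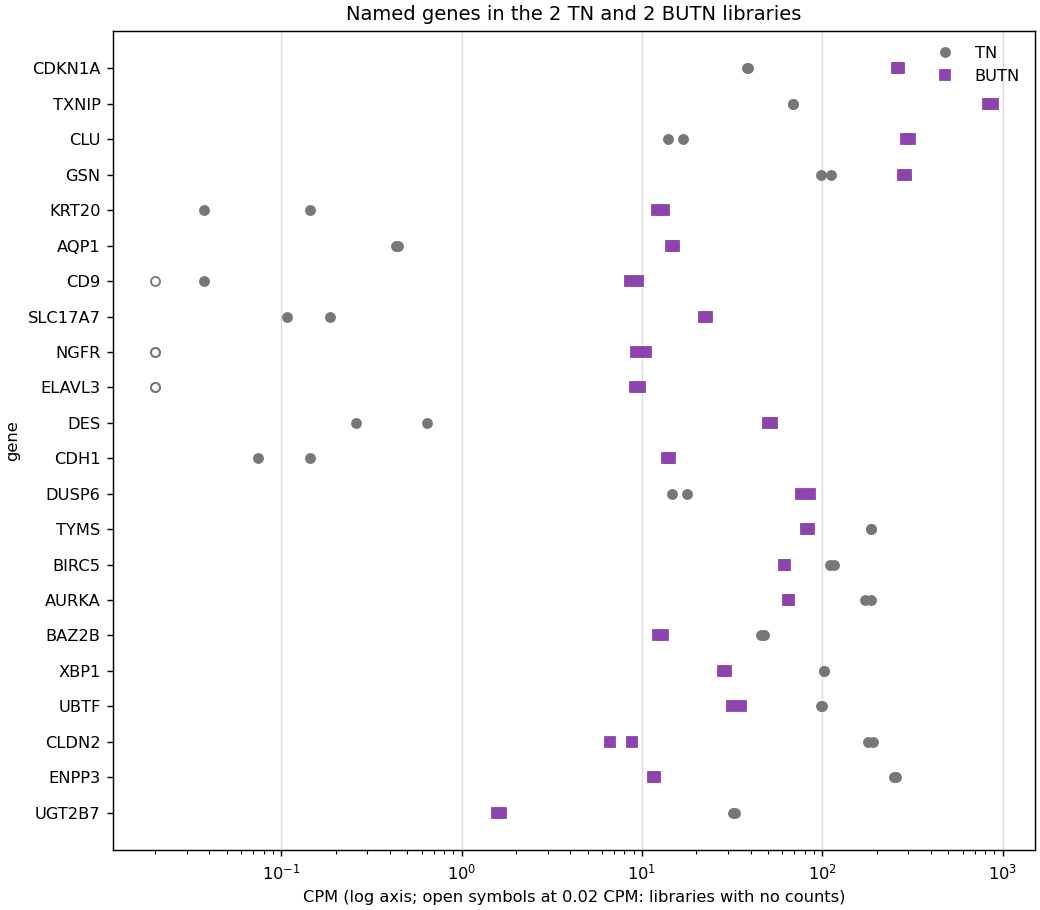
CPM (log x axis) of 22 named genes in the 2 TN libraries (grey circles) and the 2 BUTN libraries (purple squares), with open symbols at 0.02 CPM for libraries with no counts. In each gene shown both BUTN libraries lie on the same side of both TN libraries, which the naming rule required of most of them.

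Among the 32 lists, mitosis had the largest share of lower genes. Of 40 measured genes 23 fell and none was called higher (57.5% against a background of 14.6%), with a median of -0.69. All 40 reached 5 CPM in a group. Of all genes at 10 to 100 CPM in TN 22.0% were lower, and of those over 100 CPM 27.3%. The kinase AURKA, which matures the spindle poles, went from 187 and 173 to 65.4 and 64.5 CPM (log2 fold change -1.47 ± 0.06, SE, n = 2 per group). CCNB1, which drives entry into mitosis, went from 176 and 169 to 70.7 and 70.5 CPM, and PLK1 from 125 and 126 to 57.6 and 55.1 CPM. DNA replication genes did not follow, as 6 of 47 rose (12.8%), 4 fell (8.51%) and 37 were not called, with a median of -0.02 that was 0.13 with library size alone. The ribonucleotide reductase subunit RRM2 rose from 295 and 269 to 555 and 575 CPM, the opposite direction to TYMS, although both supply deoxynucleotides. Of 35 genes of homologous recombination and the Fanconi anaemia pathway 4 rose and 6 fell (11.4% and 17.1%, median 0.14). NBN, part of the sensor of double-strand breaks, fell from 219 and 201 to 70.6 and 73.0 CPM, and RAD51C rose 1.75-fold. Of 24 p53 target genes 5 rose and 1 fell (20.8% and 4.17%, median 0.12), both below the 23.2% and 14.6% over all genes. Besides CDKN1A the antiproliferative BTG2 rose, from 8.04 and 7.68 to 19.7 and 20.2 CPM, and TP53I3 fell 1.71-fold.

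Part of the genes that write and read histone acetylation fell, against 23.2% higher and 14.6% lower over all genes. Among genes at 10 to 100 CPM in TN 22.0% were lower, and among those over 100 CPM 27.3%. Of 33 histone acetyltransferases and acetyl-lysine readers 16 fell and none was called higher (48.5%), with a median of -0.54. EP300 and CREBBP, the broad acetyltransferases of enhancers, went from 92.7 and 89.7 to 46.6 and 45.9 CPM and from 80.7 and 87.4 to 37.6 and 35.8 CPM. JADE2, a subunit of the HBO1 complex, fell from 57.8 and 59.1 to 15.2 and 14.5 CPM. Of 37 histone deacetylases and corepressors 8 rose and 4 fell (21.6% and 10.8%, both below the shares over all genes). Their median of -0.08 was 0.08 with library size alone. HDAC5 rose from 12.8 and 15.3 to 39.2 and 37.4 CPM, and HDAC7, of the same class, fell from 130 and 137 to 46.4 and 44.4 CPM. Of 47 genes of nucleosome remodelling complexes 18 fell and 6 rose (38.3% and 12.8%, median -0.31, or -0.16 with library size alone). BAZ2B fell from 47.2 and 45.8 to 13.0 and 12.3 CPM and ARID1A, a subunit of the BAF complex, from 170 and 172 to 78.6 and 74.7 CPM. Among the 6 that rose was DPF1, a BAF subunit of neurons, from 2.05 and 2.08 to 10.6 and 9.54 CPM. Of 33 Mediator genes, whose products link factors to RNA polymerase II, 2 rose and 6 fell (6.06% and 18.2%), with a median of -0.10 that was 0.05 with library size alone. MED20 rose 2.14-fold and MED12 fell 2.05-fold. Of 31 nuclear pore genes 5 fell and none was called higher (median -0.28), a share of 16.1% lower. That was close to 14.6% over all genes and below the 22.0% of genes at 10 to 100 CPM in TN. NUP153 was lower by 1.81-fold.

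Of 53 ribosome biogenesis genes 21 fell, none was called higher and 32 were not called (39.6% lower, median -0.48). Over all genes 14.6% were lower, and 22.0% and 27.3% of those at 10 to 100 and over 100 CPM in TN. UBTF, the factor that opens ribosomal DNA, went from 98.0 and 99.3 to 35.6 and 31.4 CPM and NPM1, the nucleolar chaperone, from 796 and 754 to 476 and 505 CPM. Transcripts of the 73 cytosolic ribosomal proteins were mostly not called, with 4 lower, among them RPL10 at 1.99-fold, and a median of -0.14 that was 0.01 with library size alone. Of 25 unfolded protein response genes 11 fell and none was called higher (44%, median -0.46, or -0.30 with library size alone). XBP1, which turns on the response, fell from 102 and 102 to 28.2 and 29.2 CPM, and the chaperone HSPA5 from 1043 and 1015 to 558 and 569 CPM. Of 26 genes of the integrated stress response and amino acid supply 3 rose and 7 fell (11.5% and 26.9%, median -0.28). ATF5 fell from 31.7 and 30.03 to 5.44 and 4.98 CPM and ATF4, the central factor, from 351 and 337 to 160 and 155 CPM, whereas the enzyme CTH, which makes cysteine, rose 2.98-fold.

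Several metabolic lists held shares near or below the 23.2% higher and 14.6% lower over all genes. Of 59 nuclear-encoded respiratory chain genes 9 fell and 1 rose (15.3% and 1.69%, median -0.19), with UQCRFS1 lower by 1.93-fold and NDUFB3 higher by 1.68-fold. Of 37 genes of fatty acid oxidation and ketone metabolism 6 rose and 4 fell (16.2% and 10.8%, median 0.10). PPARGC1A, the coactivator of mitochondrial genes, fell from 113 and 105 to 33.4 and 32.05 CPM and ACSM3, which activates medium-chain acids, butyrate included, rose from 2.10 and 2.01 to 6.997 and 7.22 CPM. Of 27 cholesterol synthesis genes 5 fell and 1 rose (18.5% and 3.70%, median -0.29), and the mevalonate pathway kinase PMVK rose 1.98-fold. Of 32 NRF2 antioxidant genes 12 rose and 5 fell (37.5% and 15.6%, median 0.19). Thioredoxin reductase (TXNRD1) rose from 422 and 412 to 853 and 880 CPM, and the exporter ABCC3 fell from 50.3 and 54.5 to 8.70 and 8.70 CPM. Of 46 lysosomal genes 12 rose and 8 fell (26.1% and 17.4%, median 0.08), with the fucosidase FUCA1 going from 10.6 and 13.3 to 41.7 and 44.8 CPM and cathepsin S (CTSS) from 183 and 186 to 24.4 and 25.2 CPM. Of 23 clock genes 7 rose and 5 fell (30.4% and 21.7%, median 0.20), with NR1D1 higher by 2.52-fold and CIART lower by 2.31-fold.

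Among protein-coding genes with an established name, the 8 with the highest fitted rise were NGFR, ELAVL3, ALPPL2, NRXN2, CREB3L3, PRKCB, CD9 and RFPL4A. The fitted value of a gene without counts in TN is no bound, so they cannot be ranked against genes such as SLC17A7, which had counts and rose 140-fold. NGFR, the low-affinity neurotrophin receptor, had no count in TN and stood at 10.6 and 9.25 CPM in BUTN, a rise of at least 90.3-fold. CREB3L3, a liver transcription factor bound to the endoplasmic reticulum, rose at least 51.7-fold and the kinase PRKCB at least 50.4-fold. RFPL4A, at 4.58 and 5.69 CPM in BUTN, has close copies among which reads were divided by estimate. The synaptic adhesion gene NRXN2 went from 0.0372 and 0 to 10.4 and 10.55 CPM and the tetraspanin CD9 from 0.0372 and 0 to 8.63 and 9.56 CPM. The 8 largest fitted falls by the same rule were CLDN2, ENPP3, UGT2B7, TNFSF10, PSMB10, ZACN, FBXW4 and CLCF1. CLDN2, the claudin that forms cation pores in the proximal tubule, fell from 178 and 192 to 8.78 and 6.63 CPM (24.3-fold). The ectonucleotidase ENPP3 fell from 255 and 251 to 11.4 and 11.9 CPM (21.7-fold), the glucuronosyltransferase UGT2B7 20.1-fold and the proteasome subunit PSMB10 12.6-fold. TNFSF10, which encodes the death ligand TRAIL, fell from 657 and 652 to 51.9 and 48.8 CPM. It had been at 422 and 383 CPM in Ctrl, and its rise with TNF-α alone was 1.63-fold and not called (adjusted p = 0.081), so that it was counted outside the TNF-α-induced genes. RP11-512M8.5, a gene with a clone name that the rule leaves out, stood at 6.81 and 7.87 CPM in TN and had no count in BUTN. The channel ZACN had uneven replicates, at 8.15 and 17.9 CPM in TN and at 4.28 and 0.248 CPM in BUTN, and its call (adjusted p = 0.011) was lost without the second BUTN library (adjusted p = 0.117).

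The change was shared with the 2 most similar treatments, which were compared with BUTN directly. PRTN and TNBU share the TN libraries as their baseline, so each is given by its own values. The median log2 fold change of synaptic vesicle genes against TN was 2.14 in BUTN, 2.49 in PRTN and 2.40 in TNBU, and that of mitosis genes was -0.69, -0.79 and -0.91. For histone acetyltransferases and readers it was -0.54, -0.63 and -0.70, for ribosome biogenesis genes -0.48, -0.43 and -0.52, and for muscle genes 2.16, 2.02 and 1.69. Of 24342 genes, 31 were higher in BUTN than in PRTN (0.127%) and 10 were lower (0.0411%). Against TNBU 42 were higher (0.173%) and 23 were lower (0.0945%). Of the 9120 genes called against TN, 87.1% differed from PRTN by less than 1.5-fold and 25 were called. From TNBU 87.2% differed by less than 1.5-fold and 27 were called. Of all 24156 genes beyond the TNF-α-induced, 26 were higher and 10 lower than PRTN, and 20 higher and 21 lower than TNBU. The share under 1.5-fold over all genes was not counted, so 87.1% and 87.2% describe no trait particular to the called genes. At an unadjusted p under 0.05 and any fold, 3346 and 3414 of the 24156 genes differed. The median SE of a log2 difference was 0.18, and a call needed a difference of several SE. SERPINH1, for example, was 0.71 ± 0.13 (SE) above PRTN, with an adjusted p of 0.042 in limma. Differences of fewer SE were not detectable gene by gene, so the few calls do not show that the groups were equal. The counts depended on single libraries. Without BUTN replicate 1 or 2 or PRTN replicate 1, 2 genes were higher than PRTN and at most 2 lower, and without PRTN replicate 2 there were 4 and 16. Against TNBU there were 9 higher and 6 lower without BUTN replicate 1, 5 and 5 without BUTN replicate 2, 167 and 141 without TNBU replicate 1, and 20 and 26 without TNBU replicate 2.

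Butyrate at 3 mM and propionate at 15 mM differ in chain length, butyrate being longer by a methylene group, and their doses differed too. CXCL5, a neutrophil chemokine among the TNF-α-induced genes, stood at 33.4 and 34.0 CPM in BUTN and at 13.0 and 13.2 CPM in PRTN (log2 difference 1.37 ± 0.07, SE, adjusted p = 8.0e-06). The intestinal keratin KRT20 was at 13.3 and 12.2 CPM in BUTN, at 6.37 and 6.69 CPM in PRTN and at 6.83 and 6.87 CPM in TNBU, from 0.0372 and 0.144 CPM in TN. AQP1 was likewise higher in BUTN than in PRTN (8.42 and 9.16 CPM) and TNBU (8.34 and 9.36 CPM). BCL2L15, of the BCL2 family, rose to 14.6 and 13.6 CPM in BUTN against 7.38 and 7.03 CPM in PRTN. The secreted matrix protein CTHRC1, which fell against TN, was at 16.4 and 16.3 CPM in BUTN and at 8.71 and 8.61 CPM in PRTN. Lower in BUTN than in PRTN were the mitochondrial enzyme GCDH (6.75 and 6.77 against 12.04 and 11.98 CPM), PPP1R3C, which targets a phosphatase to glycogen (108 and 125 against 185 and 195 CPM), MXD1, a partner of MAX (13.3 and 14.1 against 21.0 and 20.5 CPM), and ID2, an inhibitor of helix-loop-helix factors (7.04 and 8.06 against 11.6 and 11.3 CPM). In these genes the 2 libraries of BUTN did not overlap those of PRTN, which the naming rule required of all but AQP1. The calls of AQP1, BCL2L15, CXCL3, KRT20, GCDH, MXD1 and ID2 against PRTN were lost when any 1 of the 4 libraries was left out (AQP1 at adjusted p = 0.103 to 0.29 and CXCL3 at 0.209 to 0.37), and those of KRT20 and ID2 also in the edgeR fit (adjusted p = 0.0509 and 0.0579). That of CTHRC1 was lost without BUTN replicate 1 or 2 or PRTN replicate 1 (adjusted p = 0.1, 0.101 and 0.139).

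Butyrate before and after TNF-α differed in inflammatory genes, and the time since TNF-α differed between these groups as well. Of the 42 genes higher in BUTN than in TNBU 22 were TNF-α-induced, as were 2 of the 23 lower ones, against 0.764% of all genes tested. The pentraxin PTX3 stood at 174 and 172 CPM in BUTN and at 66.9 and 37.4 CPM in TNBU, TNFAIP2 at 391.5 and 372 against 152 and 87.1 CPM, and the chemokines CXCL3 at 28.3 and 32.2 against 14.3 and 11.2 CPM and CXCL2 at 106 and 105 against 57.4 and 40.1 CPM. The TNBU libraries differed between themselves in PTX3 and TNFAIP2. Without BUTN replicate 1 or 2 the calls of PTX3 (adjusted p = 0.0882 and 0.0848), TNFAIP2 (0.182 and 0.114), CXCL2 (0.273 and 0.216) and ARFGEF3 (0.126 and 0.103) were lost, as was that of CXCL3 without BUTN replicate 2 (0.0746), and without TNBU replicate 2 those of TNFAIP2 (0.0788) and CXCL2 (0.163). Those of KRT20 (0.242 and 0.114) and AQP1 (0.119 and 0.121) against TNBU were lost without BUTN replicate 1 or 2, and that of KRT20 also without TNBU replicate 2 (0.0883). LCN2, SAA1, SAA2 and CXCL5 were lower in BUTN than in TNBU, and their calls held without each library. LCN2, a siderophore-binding protein released by injured tubules, was at 229 and 228 CPM in BUTN, at 794 and 839 CPM in TNBU, at 153 and 166 CPM in TN and at 124 and 132 CPM in PRTN (log2 difference from TNBU -1.84 ± 0.06, SE, adjusted p = 6.5e-09). SAA1 was at 1109 and 1152 CPM in BUTN and at 2381 and 2880 CPM in TNBU, from 147 and 160 CPM in TN, and SAA2, a near-identical gene, moved alike. ARFGEF3 was at 5.38 and 5.66 CPM in BUTN and at 12.02 and 10.9 CPM in TNBU. Some myeloid transcripts at trace level also separated these groups. Of 30 myeloid genes, listed after the values had been seen, CYBB, HLA-DRA, S100A9 and MPEG1 were called higher in BUTN than in TNBU and 1 gene of the list differed from PRTN. The sum of S100A8, S100A9, LYZ, CYBB, HLA-DRA and CCL3, picked from the 30, was 2.16 and 3.63 CPM in BUTN, 4.69 and 2.51 CPM in PRTN, 0.149 and 0.0359 CPM in TN and 0.0701 and 0.431 CPM in TNBU. In Ctrl that sum was 0.137 and 0.0358 CPM and in TNPR 0.148 and 0.416 CPM. The sum over all 30 was lower in BUTN, at 211 and 213 CPM, than in TN, at 267 and 282 CPM. It was 190 and 191 CPM in PRTN and 229 and 228 CPM in TNBU. CTSS held most of the sum over all 30 in TN, at 183 and 186 CPM, against 24.4 and 25.2 CPM in BUTN. In Ctrl CTSS was at 136 and 134 CPM. Of the 20 tested, 13 were higher and 1, CTSS, was lower in BUTN than in TN. The part of these transcripts in the counts of higher genes was not tested.

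**Figure D5:**
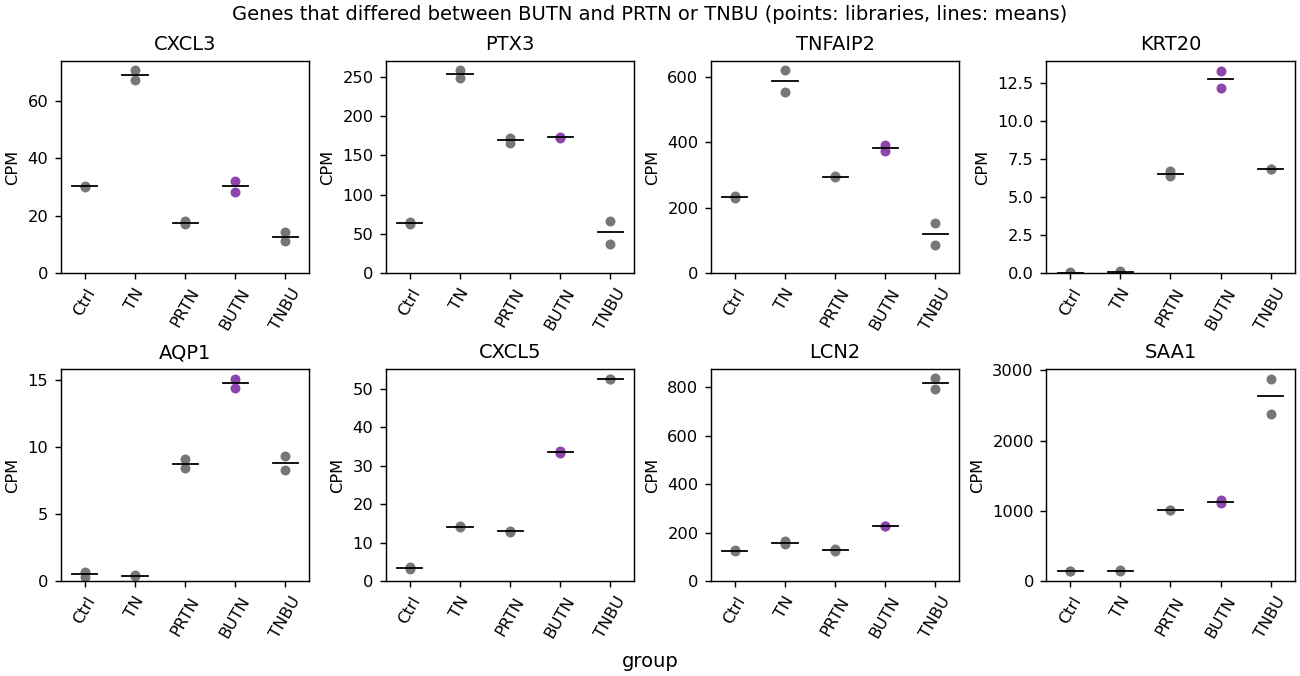
CPM (y axis, from 0) of CXCL3, PTX3, TNFAIP2, KRT20, AQP1, CXCL5, LCN2 and SAA1 in Ctrl, TN, PRTN, BUTN (purple) and TNBU, with 1 point per library and a line at the mean of 2. KRT20 and AQP1 are highest in BUTN, PTX3 is lower in TNBU than in BUTN, and LCN2 and SAA1 are highest in TNBU.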

How the data were processed

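RNA of 12 HK2 libraries was sequenced from stranded mRNA preparations. The authors aligned reads to GRCh38 with STAR (2.6.1a in the submitters' processing notes), and deposited RSEM expected counts per gene on GENCODE 26, which are estimated counts, unscaled and unfiltered. The version and strand setting of RSEM are not given in the sources used here, so antisense partners and near-identical genes can share reads. Counts were tested without rounding with limma 3.58.1 (voom) in R 4.3.3 and TMM factors from edgeR 4.0.16. Genes with a geometric mean count of at least 1 (1 added, then subtracted) were kept (24342, 33936 removed). All 6 groups shared the fit, with Benjamini-Hochberg adjustment and calls at a fold over 1.5 and an adjusted p under 0.05. CPM use TMM factors. A count of 0 was read as up to 3 counts per library, which covers counting error only. Replicates differed by more than counting noise. SE and p-values rest on 1 spread per gene, pooled over the replicates of all 6 groups of 1 line and moderated across genes. They do not measure the spread within the 2 groups compared. That spread was unequal, as the median absolute log2 difference between replicates was 0.153 in TN, 0.121 in BUTN, 0.116 in PRTN, 0.202 in TNPR and 0.232 in TNBU. Scripts were tested on simulated data. Pairing by replicate number was not applied, because the deviations of same-numbered libraries correlated from -0.0334 to 0.0670. Positions are from GENCODE 44 and promoters from RefSeq. The 32 gene lists, the members and the tests were chosen with earlier results of these data known, so list counts are descriptions. Named genes are the largest rise and fall in each list and the 8 largest of each direction (4 for PRTN and TNBU) with at least 5 CPM and no overlap of libraries, and the butyrate genes. Other genes were chosen after their values were seen, and some genes that met the rule are not reported here. The alternatives were edgeR, DESeq2 1.42.0 (both on rounded counts), other scalings, filters, fold and p thresholds, smaller fits, a replicate block, leaving out each library and, added after the data were seen, at least 1 CPM.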

Additional observations from a re-analysis of the deposited data

Results flagged for a closer look

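The genes below were singled out because a direct test found that the effect of butyrate before TNF-α differed from that of propionate before TNF-α or of butyrate after it. Values are log2 differences, BUTN minus the other group, from limma with Benjamini-Hochberg adjustment over 24342 genes. Against PRTN they were 1.37 for CXCL5, 0.97 for BCL2L15, 0.96 for KRT20, 0.92 for CTHRC1, 0.84 for LCN2, 0.78 for CXCL3 and 0.75 for AQP1, and -0.83 for GCDH, -0.71 for PPP1R3C, -0.60 for MXD1 and -0.60 for ID2. Against TNBU they were 1.79 for PTX3, 1.73 for TNFAIP2, 1.26 for CXCL3, 1.14 for CXCL2, 0.89 for KRT20 and 0.74 for AQP1, and -1.84 for LCN2, -1.33 for SAA2, -1.21 for SAA1, -1.05 for ARFGEF3 and -0.64 for CXCL5. LCN2 and CXCL5 were above PRTN and below TNBU, whereas CXCL3, KRT20 and AQP1 were above both. Without each 1 of the libraries in turn, the calls of CXCL5, LCN2 and PPP1R3C against PRTN and of LCN2, SAA1, SAA2 and CXCL5 against TNBU held, and those of the other genes were lost without at least 1 library. Groups of 2 libraries are too small to test a single library as standing apart.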

How the results depend on the processing

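The counts of genes higher and lower than TN (5597 and 3523) stayed within 1.5 times under the other tests, scalings, filters and smaller fits. The exceptions were the fold threshold of 2, with 1737 lower genes, and at least 1 CPM in a group, an alternative chosen after seeing the data, with 3524 higher genes. DESeq2 gave 4494 and 2920 and edgeR 5444 and 3399. Without 1 library there were 4320 to 5139 higher and 3180 to 3578 lower. The numbers of genes that differed from PRTN (31 higher, 10 lower) and TNBU (42 and 23) depended on the choices more. Against PRTN they were 6 lower with edgeR, 5 lower with DESeq2, 52 and 23 without a filter, 121 and 57 with only BUTN and PRTN fitted, 114 and 30 with only Ctrl, TN, PRTN and BUTN, 4 and 2 at a fold over 2, and 547 and 307 at the unadjusted p. Against TNBU they were 2 and 2 with only these groups fitted, 20 and 10 at a fold over 2, and 485 and 548 at the unadjusted p. Without 1 library they were 2 to 4 higher and 1 to 16 lower against PRTN, and 5 to 167 higher and 5 to 141 lower against TNBU. The lone library left in a group is assumed to vary like the other groups. The fit without TNBU and TNPR gives no value for TNBU. With the replicate block, genes lower than PRTN fell to 6 and ID2 and CXCL3 lost their calls against PRTN, and the counts against TN were 5590 and 3492. The replicate numbers do not pair the libraries (0 of 15 correlations over 0.1), so the block was not used. Of the alternative values of named genes, 1574 kept their side of the threshold, 78 lost and 1 gained a call, and no called value reversed. Those lost were of ZACN, of TNFAIP2 against TN and of genes compared with PRTN or TNBU. Of 448 list medians under alternatives 107 moved by over 1 SD of the replicates. Causes were not tested. Counts under 3 per library, and log2 differences below several times the SE of 0.18, were beyond this depth.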
